A study of Mus musculus with 4 samples.

Results

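The origin recognition and licensing factors are 10 genes: Orc1, Orc2, Orc3, Orc4, Orc5, Orc6, Cdc6, Cdt1, Gmnn and Cdc45. Their products mark replication origins, prepare them for firing, block that preparation (Gmnn) or act at firing (Cdc45). The 10 genes were taken by symbol from the probe annotation, with every probe whose detection p-value was at most 0.01 on at least 1 of 4 arrays. All 10 had such a probe, and they are 10 of the 8674 genes analysed and of the 19057 genes on the array. Of their 20 probes 15 were detected, 11 of them on all 4 arrays, and 5 were not. At the edge of that rule, an Orc4 probe just inside it had a lowest p-value of 0.00214 and an Orc2 probe just outside it one of 0.0481.

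The study asked what the microRNA cluster miR-17-92 does in a lymphoma that depends on the oncogene MYC. Mouse CL4188 cells, a single line of conditional MYC lymphoma of FVB/N background, carried either the retroviral vector MSCV with miR-17-92 (miR-17-92 cells) or the empty MSCV vector (control cells). Total RNA of each was profiled on an Illumina bead array after doxycycline (DOX) at 20 ng/ml for 48 hours, which shuts MYC off, and without DOX, when MYC is on. The 4 groups were miR-17-92 cells with DOX, miR-17-92 cells without DOX, control cells with DOX and control cells without DOX, and each had 1 array. Differences below therefore carry no test across replicates.

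A cell copies its DNA once per cycle by splitting the work into licensing and firing. In G1 phase the origin recognition complex, made of Orc1 to Orc6, binds DNA and, with Cdc6 and Cdt1, loads the ring-shaped MCM helicase, which licenses the origin. Geminin, the product of Gmnn, binds Cdt1 and blocks a further round of loading, and Cdc45 joins MCM and the GINS complex when the origin fires. Several of these genes, Orc1, Cdc6 and Cdt1 among them, are textbook targets of the E2F factors, which drive the entry into S phase.

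The mouse Myc probe was undetected on both arrays with DOX, where its drop came to no less than 5.80-fold (miR-17-92 cells) and 6.28-fold (control cells). Mir17hg, the host transcript of the endogenous cluster, had a signal of 263 with DOX and 1283 without DOX in the miR-17-92 cells, against 222 with DOX and 1325 without DOX in the control cells. No source used here places this probe relative to the vector's insert, and the arrays did not measure mature microRNAs. Between 13251 and 14864 of 45281 probes were detected per array, more on the arrays with DOX. T-cell markers were detected for 8 of 9 genes on each array with DOX and 6 of 9 on each without, Cd8a and Cd2 being the additional ones. Of 6 markers of stroma and endothelium 1, Pecam1, was detected, with deposited signals of 1198 with DOX and 505 without DOX in the miR-17-92 cells and 1889 with DOX and 529 without DOX in the control cells. No NK or erythroid marker was. Of 7 B-cell markers only Vpreb1 and of 6 myeloid markers only Itgam were detected, both with DOX alone, where the deposited signals were 183 for Vpreb1 and 203 for Itgam in the miR-17-92 cells, against 459 for Vpreb1 and 299 for Itgam in the control cells. The part of these markers in the results was not tested. Both arrays with DOX were on 1 slide and both without DOX on another, per the file headers, so the effects of DOX and of the slide cannot be told apart. In a bulk culture, fewer cells in a phase of the cycle and less RNA per cell cannot be told apart either.

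The cluster that the vector carries is shown by its main mature microRNAs, because they are what the compared lines differ in by design. The sequences are those of RefSeq (GRCm38.p6, plus strand of chromosome 14), with the seed, bases 2 to 8, in capitals.
mmu-miR-17-5p: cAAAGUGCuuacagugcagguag
mmu-miR-18a-5p: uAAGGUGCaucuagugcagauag
mmu-miR-19a-3p: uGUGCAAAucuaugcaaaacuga
mmu-miR-20a-5p: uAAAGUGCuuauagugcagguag
mmu-miR-19b-3p: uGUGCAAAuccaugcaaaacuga
mmu-miR-92a-3p: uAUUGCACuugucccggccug
mmu-miR-17-5p and mmu-miR-20a-5p share the seed AAAGUGC, and mmu-miR-19a-3p and mmu-miR-19b-3p share GUGCAAA. mmu-miR-18a-5p has AAGGUGC and mmu-miR-92a-3p has AUUGCAC.

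By the brightest probe of each gene, 8 of the 10 licensing genes were below 0 with MYC off in the control cells, against 4140 of all 8674 genes. In the control cells 5 of the 10 stayed within 2-fold, against 5387 of 8674. In the miR-17-92 cells all 10 did, against 6285 of 8674. In the control cells 5 of the 10 were 2-fold lower with DOX, with a median log2 ratio of -1.08. Over all genes 18% were 2-fold lower, and the median was 0.06. In the miR-17-92 cells 0 of 10 were 2-fold lower or higher with DOX, 5 lay above 0 and 5 below, and the median was -0.06. Of all genes 12.8% were 2-fold lower there and 14.8% 2-fold higher, 4697 of 8674 lay above 0, and the median was 0.09. One of the 5 in the control cells, Orc2, was not detected there with DOX. With Orc2 at its lower bound, 4 of 10 were 2-fold lower and the median was -0.89, and without background correction the median was -0.69.

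**Figure D1:**
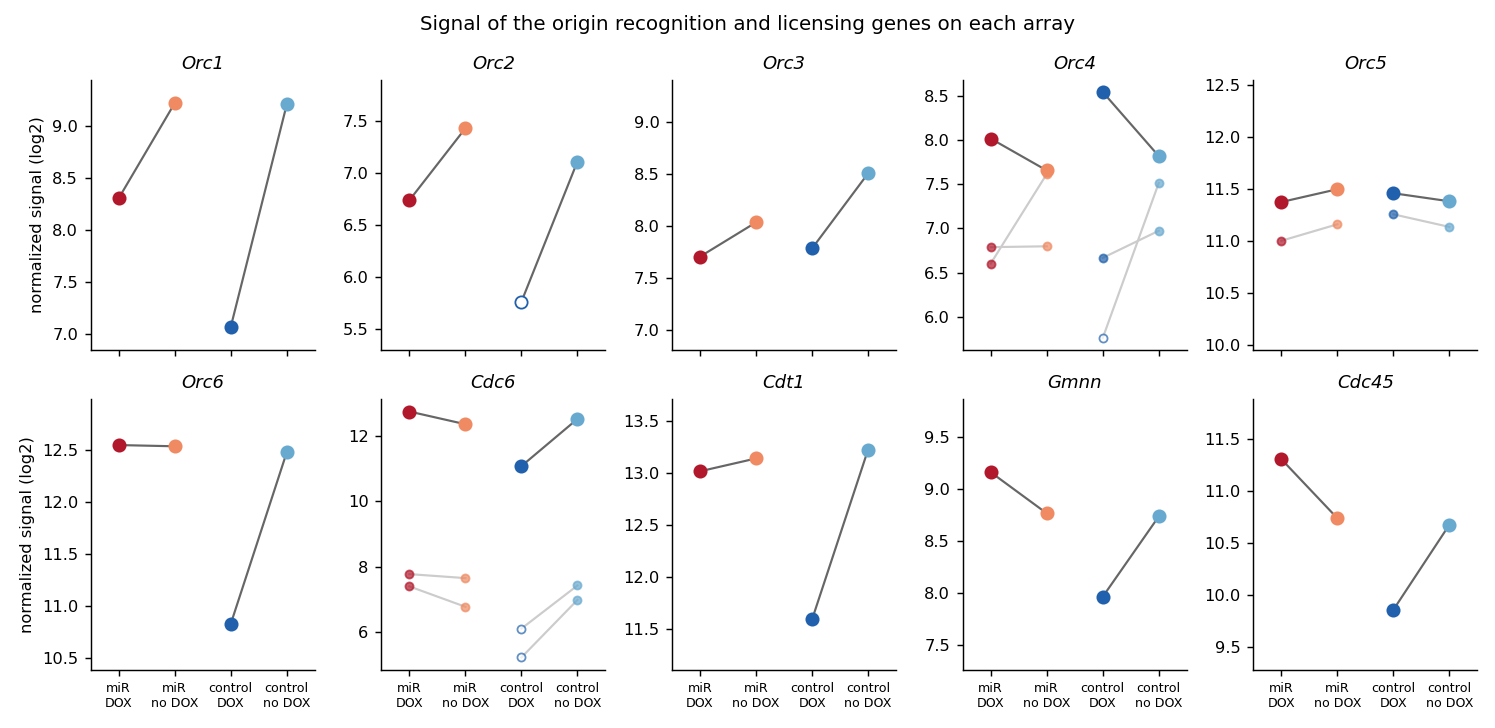
Normalized signal (log2) of each licensing gene on each of the 4 arrays, 1 panel per gene, each with its own axis. Large points are the probe that represents the gene, small points its other detected probes, open points are undetected (p-value above 0.01), and lines join the arrays with and without DOX of a line. For Orc1, Orc6, Cdc6, Cdt1, Gmnn and Cdc45 the control array with DOX stands below the other 3.

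Orc1 is the largest subunit of the complex and an ATPase, and its gene lies at chr4:108575705-108616030 (GRCm38.p6, as are all positions below). Its normalized signal, the background-corrected and quantile-normalized intensity on a linear scale, was 317 with DOX and 597 without DOX in the miR-17-92 cells, and 134 with DOX and 592 without DOX in the control cells. The arrays without DOX were alike, and the control array with DOX was the lowest. Relative to no DOX, Orc1 was 1.89-fold lower (miR-17-92 cells) and 4.40-fold lower (control cells), where it had the lowest ratio of the 10 and rank 373 of 8674 from the lowest. The size and the place among the 10 depended on the processing. The log2 ratio in the control cells was -2.14 as reported, -1.73 with median scaling, -1.53 without background correction and -1.55 with the authors' processed values. Cdt1 was then lower than Orc1, at -1.775, -1.60 and -1.90 in the same order.

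Orc6, at chr8:85299632-85308279, is the smallest subunit and the one least related to the rest. Its signal was 5996 with DOX and 5948 without DOX in the miR-17-92 cells, and 1822 with DOX and 5718 without DOX in the control cells. Only the control array with DOX departed from the other 3. The log2 ratio of DOX over no DOX was 0.01 in the miR-17-92 cells, with a sign that turned under 2 of 8 alternatives, and -1.65, or 3.14-fold lower, in the control cells.

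Orc2, at chr1:58462771-58505113, belongs to the stable core of the complex. It lay near the detection limit, with signals of 107 with DOX and 172 without DOX in the miR-17-92 cells, and of 54.2 with DOX (undetected, detection p-value 0.0449) and 138 without DOX in the control cells. Relative to no DOX it was 1.62-fold lower (miR-17-92 cells) and at least 1.95-fold lower (control cells). A difference between these effects is not given for a gene that 1 array did not detect.

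Orc3, Orc4 and Orc5 complete the core, and by its brightest probe each stayed within 2-fold in every comparison. Orc3, at chr4:34566781-34614963, had 209 with DOX and 262 without DOX in the miR-17-92 cells, and 220.4 with DOX and 363 without DOX in the control cells, which made it 1.26-fold lower with DOX in the miR-17-92 cells and 1.65-fold lower in the control cells. In the miR-17-92 cells its log2 ratio was -0.33, but 0.05 with median scaling. Orc5, at chr5:22486480-22550338, had 2656 with DOX and 2892 without DOX in the miR-17-92 cells, and 2815 with DOX and 2668 without DOX in the control cells. Its log2 ratios of -0.12 in the miR-17-92 cells and 0.08 in the control cells were smaller than the spread between probes of 1 gene, which was log2 0.32 for the DOX effect in the miR-17-92 cells and 0.33 in the control cells over 3502 genes with several probes. Its second probe gave -0.16 in the miR-17-92 cells and 0.12 in the control cells.

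The probes of Orc4, at chr2:48902824-48952902, disagreed. The brightest one, ILMN_2600085, had 259 with DOX and 202 without DOX in the miR-17-92 cells, and 373 with DOX and 225 without DOX in the control cells, so it was 1.28-fold higher with DOX in the miR-17-92 cells and 1.65-fold higher in the control cells. The second one, ILMN_1241166, was 2.02-fold lower (miR-17-92 cells) and at least 2.58-fold lower (control cells) with DOX. The third one, ILMN_2689513, had log2 ratios of -0.01 in the miR-17-92 cells and -0.31 in the control cells. With the mean of the 3 probes, the log2 ratio of Orc4 was -0.22 in the miR-17-92 cells and -0.44 in the control cells, so no direction is given for this gene.

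Cdc6 is the ATPase that recruits MCM to the complex, and it lies at chr11:98907709-98923942. Its brightest probe, ILMN_2597255, had 6885 with DOX and 5260.1 without DOX in the miR-17-92 cells, and 2166 with DOX and 5882 without DOX in the control cells. The control array with DOX was again the only low one. Cdc6 was 1.31-fold higher with DOX in the miR-17-92 cells and 2.72-fold lower in the control cells. In the other detected probes, too, the miR-17-92 array with DOX stood above the control array with DOX. ILMN_1230340 had 219.6 with DOX and 202 without DOX in the miR-17-92 cells, against 69.2 with DOX, undetected, and 173 without DOX in the control cells. ILMN_3155217 had 169 with DOX and 109.9 without DOX in the miR-17-92 cells, against 37.6 with DOX, undetected, and 127 without DOX in the control cells. In the control cells these probes were at least 2.44-fold and at least 1.79-fold lower with DOX.

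Cdt1, at chr8:122568015-122573130, is the loader that delivers MCM together with Cdc6. Its signal was 8308.5 with DOX and 9050.3 without DOX in the miR-17-92 cells, and 3097 with DOX and 9601 without DOX in the control cells. Relative to no DOX, Cdt1 was 1.09-fold lower (miR-17-92 cells) and 3.10-fold lower (control cells). The 4 arrays had the same order in the deposited Cdt1 signals before normalization, which were 8009 with DOX and 10400.4 without DOX in the miR-17-92 cells, and 3083 with DOX and 10474 without DOX in the control cells.

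Gmnn, which encodes the inhibitor of Cdt1 and lies at chr13:24751845-24761937, had a signal of 574 with DOX and 436 without DOX in the miR-17-92 cells, and of 250.3 with DOX and 427 without DOX in the control cells. It was thus 1.31-fold higher with DOX in the miR-17-92 cells and 1.71-fold lower in the control cells. Cdc45, at chr16:18780447-18811972, had 2538 with DOX and 1712 without DOX in the miR-17-92 cells, and 931 with DOX and 1641 without DOX in the control cells. It was 1.48-fold higher with DOX in the miR-17-92 cells and 1.76-fold lower in the control cells. In both genes the array of the miR-17-92 cells with DOX was the highest of the 4 and that of the control cells with DOX the lowest.

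**Figure D2:**
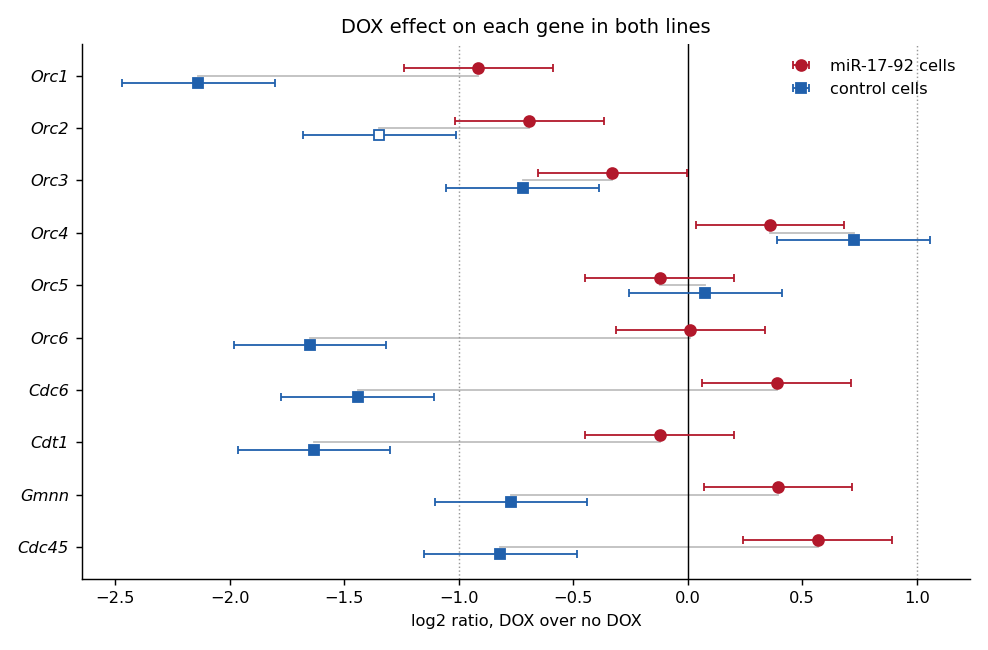
Log2 ratio of DOX over no DOX for each gene in the miR-17-92 cells (circles) and the control cells (squares), joined by a grey line. Bars are the spread between probes of 1 gene over the array (log2 0.32 and 0.33), not a replicate error. Dotted lines mark 2-fold, and the open square is Orc2, undetected in control cells with DOX. The ratios run from -0.92 to 0.57 in the miR-17-92 cells and from -2.14 to 0.72 in the control cells.

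By role, 2 of the 6 subunits, Orc1 and Orc6, were 2-fold lower after DOX in the control cells by a detected ratio, against 18% of all genes. With Orc2 at its lower bound, the subunit median was -0.23 in the miR-17-92 cells and -0.84 in the control cells. Of the 3 genes for loaders and their inhibitor, Cdc6 and Cdt1 were 2-fold lower in the control cells, against the same 18% of all genes. The median over the 3 was 0.39 in the miR-17-92 cells and -1.44 in the control cells.

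Without DOX, when MYC was on, the miR-17-92 and the control cells differed little in these genes. None of the 10 was past 2-fold in either direction, which is near the share of all genes, 2.21%. The log2 ratios ran from -0.47 for Orc3 to 0.32 for Orc2, with a median of 0.02. For Orc1, Orc6, Cdt1, Gmnn and Cdc45 the ratio was between -0.09 and 0.06, inside the spread between probes of 0.19 in this comparison, and for Cdc6 it was -0.16.

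With DOX, when MYC was off, 6 of the 10 genes were 2-fold higher in the miR-17-92 cells than in the control cells, against 6.36% of all genes. None of the 10 was 2-fold lower, which is near the share of all genes, 419 of 8674. The 6 higher genes were Orc6 at 3.29-fold, Cdc6 at 3.18-fold, Cdc45 at 2.73-fold, Cdt1 at 2.68-fold, Orc1 at 2.36-fold and Gmnn at 2.29-fold. Their ranks from the highest of 8674 genes ran from 98 for Orc6 to 352 for Gmnn. The other Cdc6 probes were at least 3.10-fold and at least 2.39-fold higher. Orc2 was at least 1.51-fold higher, Orc3 had a log2 ratio of -0.08 and Orc5 one of -0.08. The 3 Orc4 probes gave -0.53, a lower bound of 1.37-fold higher and 0.12. The median over the 10 genes was 1.22, against 0.00 over all genes. Without background correction and with the authors' processed values 4 of the 10 were 2-fold higher. Orc1, at log2 0.81 and 0.87, and Gmnn, at 0.93 and 0.94, then were not.

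Subtracting the DOX effect of the control cells from that of the miR-17-92 cells uses all 4 arrays and so shares its arrays with the comparisons above. The difference was past 2-fold above 0 for 6 of the 10 genes, against 7.1% of all genes. It was 2-fold below 0 for none of the 10, near the share of all genes, 418 of 8674. It was 1.83 for Cdc6, 1.66 for Orc6, 1.51 for Cdt1, 1.39 for Cdc45, 1.22 for Orc1 and 1.17 for Gmnn on the log2 scale. Cdc6 had rank 66 from the highest and Gmnn rank 423. These values were above the spread between probes, log2 0.31, which comes from the same arrays and holds no variation between cultures, while 0.39 for Orc3, -0.20 for Orc5 and -0.36 for Orc4 were near it. For Cdc6, Gmnn and Cdc45 the DOX effects had opposite signs in the lines, and for Orc1 both were negative and differed in size. Across the 3 loader and inhibitor genes the median difference was 1.51, and across the 5 subunits detected on all arrays it was 0.39. Over the 9 genes detected on all arrays the median was 1.22. Without background correction and with the authors' processed values 4 of the 10 were past 2-fold, as Orc1 and Gmnn were not.

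**Figure D3:**
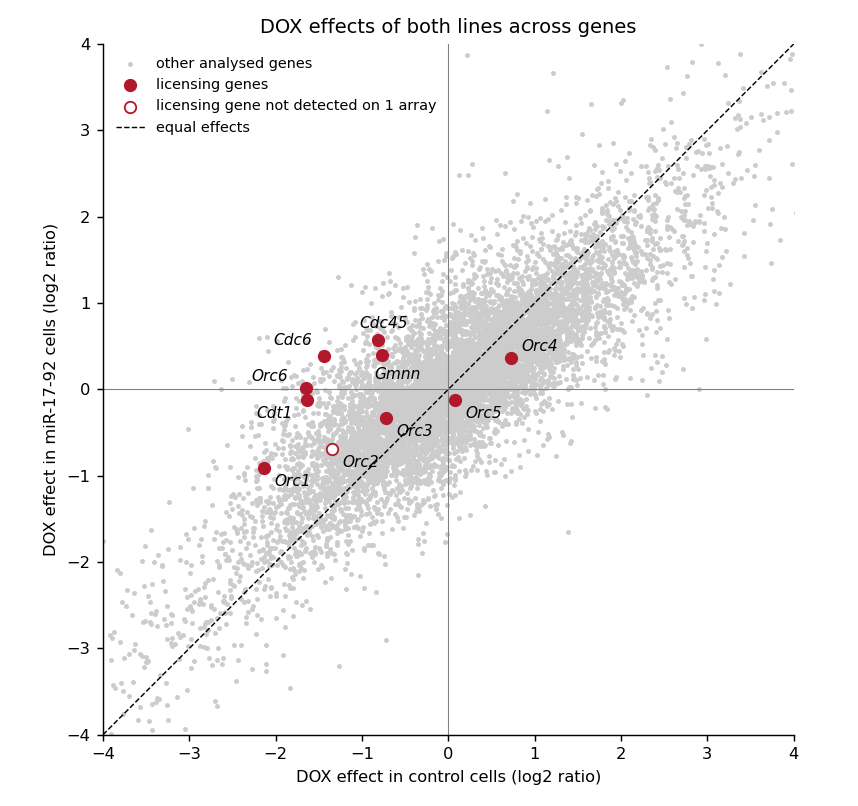
DOX effect (log2 ratio of DOX over no DOX) in the miR-17-92 cells against that in the control cells, for the licensing genes (large points) and the other analysed genes (grey). The dashed line marks equal effects, genes beyond the axis limits are not drawn, and the open point is Orc2. Cdc6, Orc6, Cdt1, Cdc45, Gmnn and Orc1 lie 1.17 to 1.83 log2 units above the line, Orc4 and Orc5 just below it.

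**Figure D4:**
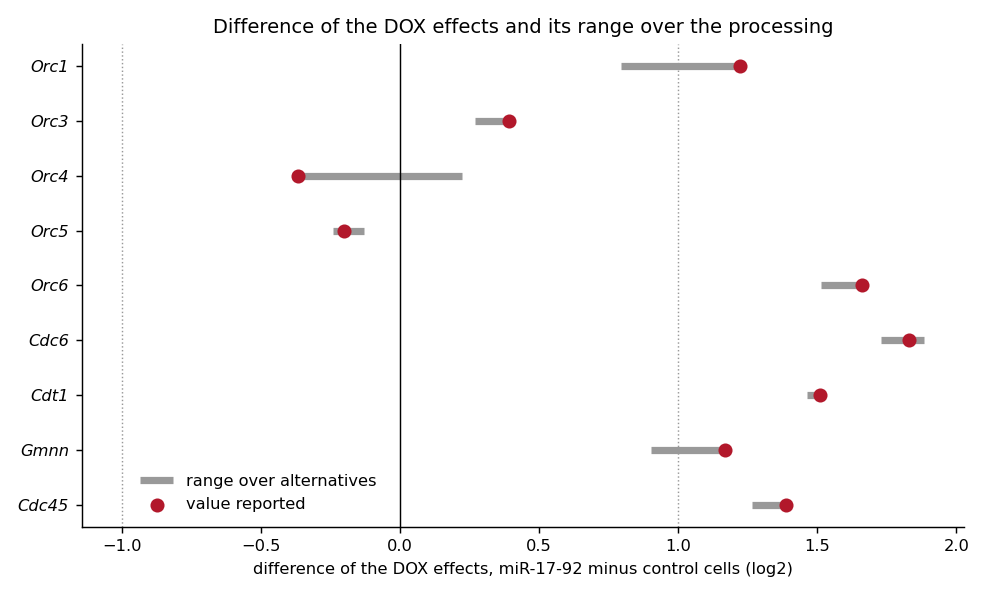
Difference of the DOX effects (log2, miR-17-92 minus control cells) for the 9 genes detected on all 4 arrays. Points are the reported values, grey bars the range over 8 alternative ways of processing, dotted lines 2-fold. Cdc6, Orc6, Cdt1 and Cdc45 stay past 2-fold throughout, Orc1 and Gmnn come down to 0.80 and 0.90, and Orc4 turns sign with the mean of its probes.

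Promoter windows were read for the 9 genes that RefSeq's table holds (GRCm38.p6), each from 250 bases before to 50 after an annotated start, 12 windows in all. An E2F core (TTCCCGC or TTCGCGC or TTGCCGC or TTGGCGC, on either strand) was found for 5 of the 9 genes, in 5 of 12 windows, and in 9.57% of 32851 windows over all genes. The genes were Orc1, Orc3, Orc4, Cdc6 and Cdt1. Of the 4 genes past 2-fold downward in the control cells by a detected ratio, Orc1, Cdc6 and Cdt1 had a match and Orc6 had none in these windows. Orc2, with a lower bound of 1.95-fold, had none either. Orc3 and Orc4 had a match too, and neither was past 2-fold by its brightest probe. The E-box CACGTG, the letters of the MYC site, was found for 1 gene, Orc4, in 1 of 12 windows, and in 7.15% of all windows. CCAAT was found for 5 of 9 genes, in 6 of 12 windows, and in 37.4% of all windows. The CHR letters TTTGAA were found for 1 gene, Cdc45, in 1 of 12 windows, and in 17.9% of all windows. Both strands were searched. The letters of CCAAT can overlap those of the last E2F core, but no match in these 12 windows overlapped a match of another motif.

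The windows of the 4 genes that were 2-fold lower in the control cells by a detected ratio are printed, 5′ to 3′ on the plus strand, with E2F cores in capitals.
Cdt1, chr8:122567765-122568064: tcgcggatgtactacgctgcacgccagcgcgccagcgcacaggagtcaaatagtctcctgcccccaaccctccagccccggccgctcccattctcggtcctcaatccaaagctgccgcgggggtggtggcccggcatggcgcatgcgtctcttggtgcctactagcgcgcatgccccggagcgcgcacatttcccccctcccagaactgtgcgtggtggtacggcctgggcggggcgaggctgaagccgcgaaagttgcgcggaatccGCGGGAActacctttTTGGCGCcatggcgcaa
Cdc6, chr11:98907901-98908200: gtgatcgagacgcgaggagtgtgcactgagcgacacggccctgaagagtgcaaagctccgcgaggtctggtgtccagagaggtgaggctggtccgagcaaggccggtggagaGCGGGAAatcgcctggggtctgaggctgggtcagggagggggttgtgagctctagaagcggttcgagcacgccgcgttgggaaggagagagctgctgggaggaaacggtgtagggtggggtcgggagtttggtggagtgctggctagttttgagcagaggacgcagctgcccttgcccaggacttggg
Orc1, chr4:108579204-108579503: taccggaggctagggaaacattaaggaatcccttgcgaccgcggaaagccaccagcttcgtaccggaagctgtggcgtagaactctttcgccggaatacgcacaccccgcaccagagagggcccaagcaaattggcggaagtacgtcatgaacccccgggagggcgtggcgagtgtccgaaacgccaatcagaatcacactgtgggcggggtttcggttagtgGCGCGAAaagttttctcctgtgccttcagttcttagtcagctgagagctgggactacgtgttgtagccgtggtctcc
Orc6, chr8:85299382-85299681: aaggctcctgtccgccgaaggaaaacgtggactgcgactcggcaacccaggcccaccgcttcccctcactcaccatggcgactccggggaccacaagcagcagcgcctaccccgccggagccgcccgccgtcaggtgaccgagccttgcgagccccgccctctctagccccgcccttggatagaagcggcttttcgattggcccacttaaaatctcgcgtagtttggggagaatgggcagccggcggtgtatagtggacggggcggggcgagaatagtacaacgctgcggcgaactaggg
Counted from the start site of each window, the cores began at 19 and 34 in Cdt1, past the start, and at -138 in Cdc6 and -27 in Orc1. The Cdc6 and Orc1 windows lie inside the gene spans given above, and no window at the outer start of those spans was read. The Cdt1 window thus held 2 cores within the first bases of the transcript, and the Orc6 window held none. A match is a run of letters and shows no binding.

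Genes of related steps were set beside the licensing genes by lists chosen with earlier results of these data known. The MCM and GINS genes, the helicase and its partner, had all 10 members analysed. In the miR-17-92 cells 1 was 2-fold higher with DOX, Gins3 at 1.07, against 14.8% of all genes. None was 2-fold lower there, against 12.8% of all genes, and the median was -0.04. In the control cells 7 of 10 were 2-fold lower, against 18% of all genes, with a median of -1.50. The difference of the effects was past 2-fold for 9 of 10, against 7.1% of all genes, with a median of 1.56, led by Gins2 at 2.82 and Mcm6 at 2.56. Of the origin firing genes, such as the kinase gene Cdc7 and the cyclins, 12 of 13 were analysed. None was past 2-fold with DOX in the miR-17-92 cells, against 12.8% of all genes lower and 14.8% higher, with a median of -0.19. In the control cells 6 of 12 were 2-fold lower, against 18% of all genes, with a median of -0.86. The difference was past 2-fold for 6 of 12, against 7.1%, among them Mcm10 at 1.76, Recql4 at 1.64 and Wdhd1 at 1.44.

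Genes that control licensing act by degradation of its factors or on chromatin. Of 15 listed, 13 were analysed. None was past 2-fold with DOX in the miR-17-92 cells, against 12.8% of all genes lower and 14.8% higher. In the control cells 2 were 2-fold lower, Kmt5a at -1.42 and Dtl at -1.15. That count of 2 in 13 is near the 18% of all genes that were 2-fold lower. The median of the list was -0.13 in the miR-17-92 cells and -0.59 in the control cells, against 0.09 and 0.06 over all genes. The difference had a median of 0.27 and was past 2-fold for 1 of 13, near the 7.1% of all genes. That gene was Pcna, the sliding clamp on which Cdt1 is degraded in S phase, at 1.57. The E2F factors and their partners were mixed. Of 12 analysed, 3 were 2-fold higher and none lower with DOX in the miR-17-92 cells, where 14.8% of all genes were higher and 12.8% lower. In the control cells 3 were higher and 5 lower, where 19.9% of all genes were higher and 18% lower. E2f8, among the higher ones in the miR-17-92 cells, and Rbl2, among those in the control cells, were not detected on every array. E2f1, an activator of the licensing genes, had a log2 ratio of -0.38 with DOX in the miR-17-92 cells and -1.93 in the control cells, a difference of 1.55. E2f2 went the other way, at 1.98 in the miR-17-92 cells and 1.52 in the control cells, a difference of 0.46. The part of these factors in the results was not tested. Mitosis genes, which act after replication, were above 0 with DOX for 13 of 13 in the miR-17-92 cells, against 4697 of all 8674 genes. Of these 13, 4 were 2-fold higher (Cenpf, Nusap1, Top2a and Ndc80), against 14.8% of all genes. The median over the 13 was 0.24, inside the spread between probes of log2 0.32. In the control cells 2 of 13, Nuf2 and Aurkb, were 2-fold lower, near the 18% of all genes, with a median of -0.45. The difference was past 2-fold for 5 of 13 (Nuf2, Cenpf, Aurkb, Kif11 and Nusap1), against 7.1% of all genes, and reached 1.87 for the kinetochore gene Nuf2.

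**Figure D5:**
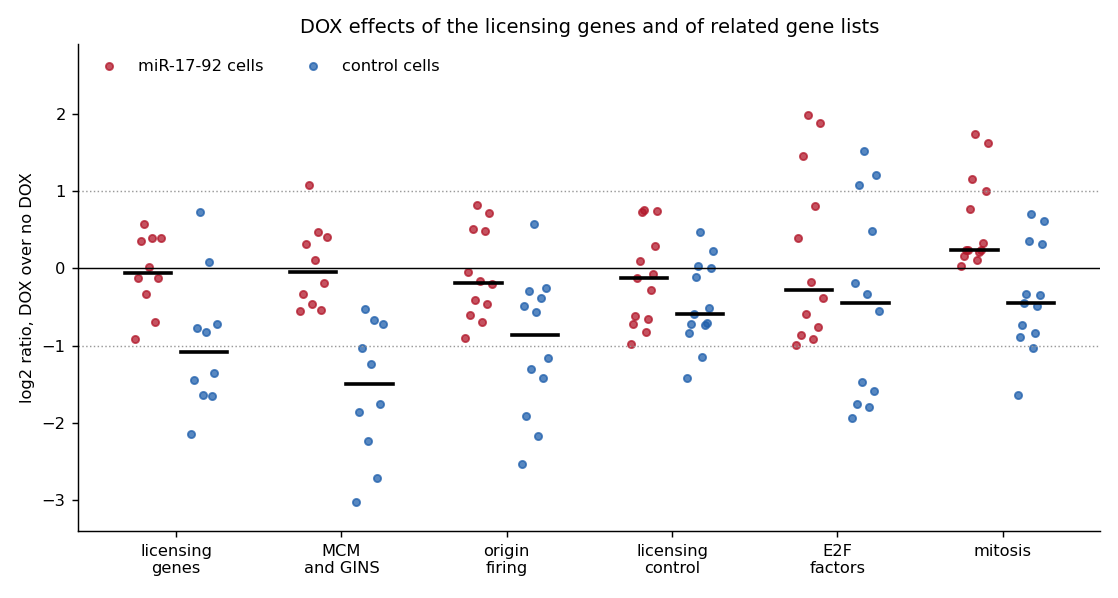
DOX effect (log2 ratio of DOX over no DOX) of each analysed gene of the licensing genes and of 5 related lists, in the miR-17-92 cells (red, left of each pair) and the control cells (blue, right). Thick bars are medians, dotted lines 2-fold. The medians of the licensing genes are -0.06 and -1.08, those of MCM and GINS -0.04 and -1.50, and those of mitosis 0.24 and -0.45.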

How the data were processed

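Biotin-labelled cRNA from total RNA was hybridised to 4 Illumina mouse arrays, per the labels' protocols, 1 per group. GenomeStudio is named in the submitters' processing notes. The deposited non-normalized table has, per the file headers, a signal intensity and a detection p-value per array for 45281 probes. The detection columns carry slide positions. Each was linked to the array whose signal orders it with 0 rises of the p-value, against at least 16605 for any other array. The authors' processed values, also intensity, are a linear rescaling per array (r = 1, 0 rank breaks), by a method that no source used here states, on a linear scale that is not centred. Their medians were 104.6 and 143.2 in the miR-17-92 cells with and without DOX, and 100.9 and 146.9 in the control cells with and without DOX, and being levels they have no direction.

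The normal-exponential background correction of limma 3.58.1 (R 4.3.3) was used, the negative controls being inferred from detection p-values, with an offset of 16, followed by log2 and quantile normalization of the 4 arrays. Ratios are thus relative to other genes, and a shift shared by every gene would not show. The procedure was checked on simulated data in which few probes changed, equally up and down. That check does not cover changes as broad as those with DOX. Of the probes, 34885 had 1 gene symbol, 18 several and 10378 none, and 34807 were matched to current symbols of RefSeq's gene table. The brightest detected probe stood for its gene, and levels were not compared between probes. A 2-fold ratio, log2 of 1, was the threshold of size, since 1 array per group allows no test of an effect within a line or of the difference of the effects. An additive fit over both lines, which would take that difference as error, was not run. Where 1 array did not detect a probe, the fold is a lower bound, with the dim side set to its own signal or, if higher, to the lowest detected signal on that array. The spread between probes is a robust SD, taken over genes, of how far the ratios of a gene's 2 brightest probes lie apart, divided by the square root of 2. The text names all 10 licensing genes, and of each related list up to 3 members with the largest ratio in the DOX effect in control cells or in the difference, plus members that complete a count of 5 or fewer or a description, which were chosen after their values were seen. The members and lists were chosen with earlier results of these data known. Alternatives were median scaling, no background correction, the authors' processed values, an offset of 50, the mean of a gene's probes, detection on all 4 arrays, detection at p-values of at most 0.05, and no filter. Gmnn has no promoter window here.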

Additional observations from a re-analysis of the deposited data

Results flagged for a closer look

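For 5 of the licensing genes the DOX effects in the miR-17-92 and the control cells had opposite signs, and with 1 array per group the difference was not tested. Taken as miR-17-92 minus control cells on the log2 scale, the difference was 1.83 for Cdc6, 1.66 for Orc6, 1.39 for Cdc45, 1.17 for Gmnn and -0.20 for Orc5. Orc6 is among them by a DOX effect of 0.01 in the miR-17-92 cells, whose sign turned under 2 of 8 alternatives, and Orc5 by effects inside the spread between probes. For Cdc6, Cdc45 and Gmnn the signs stood under all 8 alternatives run, of which those that change only the detection filter left these values as they were.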

How the results depend on the processing

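Under the 8 alternatives 0 licensing genes in the miR-17-92 cells and 4 to 5 in the control cells were 2-fold lower after DOX, and 4 to 6 were 2-fold above 0 in the difference. Between the lines with DOX, a count added after seeing the data, 4 to 7 were 2-fold higher, against 6 as reported, the 7 including the undetected Orc2 with median scaling. Without background correction the median was -0.69 for the DOX effect in the control cells, 0.87 between the lines with DOX and 0.85 for the difference, and with the authors' processed values it was 0.90 between the lines with DOX and 0.88 for the difference. The cause was not tested. Of 395 values of single genes, 28 moved by more than the spread between probes and 0 past 2-fold turned sign, while 9 smaller ones did, of Orc3, Orc4, Orc5 and Orc6. Many of the 395 could not move. The alternatives that change only the detection filter kept each gene's probe and its value. The mean of a gene's probes could change only the 3 genes with several detected probes. The median DOX effect of all genes was 0.25 in the miR-17-92 cells and 0.24 in the control cells with median scaling, and -0.07 and -0.13 with the authors' values. Relative to it, the licensing genes' median was -0.14 in the miR-17-92 cells and -1.14 in the control cells as reported, -0.26 and -1.07 with median scaling, and -0.17 and -0.71 with the authors' values.

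Over all genes, the number past 2-fold between the lines without DOX was 192 as reported, 15 without background correction, 9 with the authors' values, 55 with an offset of 50, 27 with detection on all arrays, 291 with detection at 0.05 and 293 without a filter. With DOX, 1281 were 2-fold higher than without in the miR-17-92 cells as reported, 796 without background correction, 661 with the authors' values and 852 with detection on all arrays, and 1722 in the control cells, against 945 with the authors' values. Between the lines with DOX 552 were higher as reported, 293 without background correction and 336 with the authors' values, and for the difference 616, 295 and 318 were above 0. The share of higher genes among those past 2-fold with DOX was 53.6% in the miR-17-92 cells, 66.3% with median scaling and 41.3% with the authors' values, and 52.4% in the control cells, 62.2% with median scaling and 40.1% with the authors' values. Between the lines it was 53.1% without DOX and 66.7% with the authors' values (6 of 9 genes) and 40.7% with detection on all arrays (11 higher and 16 lower). It was 56.8% with DOX and 66.9% with the authors' values, and for the difference 59.6% and 71.6%. No analysis paired by replicate number was possible because each group has 1 array, so that the groups compared share fewer than 2 replicate numbers. An analysis of DOX paired over both lines was not run. Protein features were not run, as no protein table was used here. Dim genes, Orc2 and the second probes of Orc4 and Cdc6, lie near background, and having 4 arrays limits precision throughout.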
